A study of Saccharomyces cerevisiae with 56 samples.

Results

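Replication protein A (RPA) was weakened in 2 ways, by the *rfa1*-t33 allele and by loss of Rtt105, and the DNA captured at a chromosomal break was compared between these mutants. The members are the donors, that is the mapped origins of the inserted DNA, in the 2 deposited lists of the *rfa1*-t33 strain and the 2 of the *rtt105*Δ strain. Lists that also name *rad27* were not members. There were 51 donors in *rfa1*-t33 and 624 in *rtt105*Δ, together 675 of 1620 donors in all lists used.

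RPA is the heterotrimer that coats single-stranded DNA during replication and repair, and Rfa1 is its largest subunit. Rtt105 binds RPA, brings it into the nucleus and helps it load onto single-stranded DNA. Single-stranded DNA that is left bare can fold back on itself, pair at short repeats or be cut. At a break that cannot be repaired from a homologous template, ends are joined by nonhomologous end joining, and pieces of DNA from elsewhere can be joined in between.

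In the *Break-Ins* assay, galactose switched on the HO endonuclease, which cut once at *MAT***a**. Survivors on galactose plates at 30 °C were pooled and the repaired junction was sequenced as an amplicon. Both strains were haploid derivatives of JKM139 (*MAT***a**) that share the alleles *ade1*, *lys5*, *leu2-3 112*, *ura3-52* and *trp1::hisG*, the marker *ADE1* in place of both silent cassettes (*hml::ADE1*, *hmr::ADE1*), *DELho* and the inducible *ade3::GAL10::HO*. The mutants compared were *rfa1*-t33, made with CRISPR/Cas9, and *rtt105::hphMX*, each represented by 1 strain. RFA1 (YAR007C) lies on chromosome I at 156754 to 158619 of R64, and RTT105 (YER104W) on chromosome V at 366802 to 367428. RFA1 was overlapped by no donor in either genotype, and RTT105 by none in *rfa1*-t33. In *rtt105*Δ the gene RTT105 is deleted and could not be a donor. How many donors would be expected in genes of this length was not computed, and the lists hold no measurement of either gene.

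The labels give 3 libraries of *rfa1*-t33 with 23424, 9552 and 20208 colonies, and 8 of *rtt105*Δ with 19824 to 64960 colonies. The totals were 53184 and 374304 colonies. A list pools all libraries of a genotype and gives no read number, so donors or insertions are the units and the spread between libraries is unknown. The p-values and the exact 95% (Clopper-Pearson) intervals therefore cover counting error only. Where donors are the units, those of 1 complex insertion are counted separately although they are not independent, so these intervals are too narrow. This concerns 6 donors of 3 complex insertions in *rfa1*-t33 and 81 of 40 in *rtt105*Δ. The read names showed that all *rfa1*-t33 donors came from 1 sequencing run. The *rtt105*Δ donors came from 2 other runs, a smaller one with 52 donors and a larger one with 572. Run and genotype cannot be told apart, and *rtt105*Δ values are given for each run where they differ.

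Insertions from outside *MAT* were less frequent per colony in *rfa1*-t33 than in *rtt105*Δ. There were 40 such insertions in *rfa1*-t33, or 7.52 per 10000 colonies (5.37 to 10.2). In *rtt105*Δ there were 560, or 15.0 per 10000 colonies (13.7 to 16.3), a level 1.99 times as high (Fisher's exact test, two-sided, p = 5.50e-06). Colonies are as the labels give them, without the correction for HO cutting that the study makes for each genotype. That correction takes off a larger part of the *rtt105*Δ colonies, is not used here, and would lower every ratio of *rfa1*-t33 to *rtt105*Δ frequencies by 1 factor while leaving the shares below as they are. With the colonies of *rtt105*Δ lowered in steps of 1 percent down to 50%, this difference passed the test throughout, and with those of *rfa1*-t33 lowered it no longer passed from 69% on.

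Among classes of donors, the difference per uncorrected colony passed the test for Ty and mitochondrial DNA. Ty retrotransposons are copied through an RNA intermediate into cDNA. Ty donors were at 1.50 per 10000 colonies in *rfa1*-t33 (8 donors, 0.649 to 2.96) and at 5.48 in *rtt105*Δ (205 donors, 4.75 to 6.28). This 3.64-fold difference passed the test (adjusted p = 1.48e-04, Fisher's exact test, Benjamini-Hochberg over 6 classes). Nuclear donors outside Ty, rDNA and *MAT* were at 5.64 in *rfa1*-t33 (30 donors, 3.81 to 8.05) and at 7.53 in *rtt105*Δ (282 donors, 6.68 to 8.47), which did not pass (adjusted p = 0.216). The odds ratio of *rfa1*-t33 to *rtt105*Δ for nuclear donors was 0.749 with an interval from 0.496 to 1.09 that includes equality, and the difference passed the test once the colonies of *rtt105*Δ were lowered to 87%. Relative to *rfa1*-t33, the study's correction for HO cutting lowers the *rtt105*Δ colonies further than that. The missing call for nuclear donors therefore holds for uncorrected colonies only. With the colonies of *rfa1*-t33 lowered instead, the Ty call was lost at 63%.

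Donors of the ribosomal DNA array were at 0.940 per 10000 colonies in *rfa1*-t33 (5 donors, 0.305 to 2.19) and at 1.68 in *rtt105*Δ (63 donors, 1.29 to 2.15; adjusted p = 0.323). No mitochondrial donor was listed in *rfa1*-t33, and 0 counts allow up to 0.564 per 10000 colonies (3 counts; the exact interval ends at 0.694). In *rtt105*Δ there were 42, or 1.12 per 10000 (0.809 to 1.52), and the difference passed the test (adjusted p = 0.0237). It did not pass with the chi-square test (adjusted p = 0.0815) or with single-donor insertions only (adjusted p = 0.0542), nor with the colonies of *rfa1*-t33 lowered to 76%. The lists also name a sequence mp, whose nature is not given in the sources used here. Its donors numbered 0 in *rfa1*-t33 and 8 in *rtt105*Δ (0.214 per 10000; adjusted p = 0.607).

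**Figure D1:**
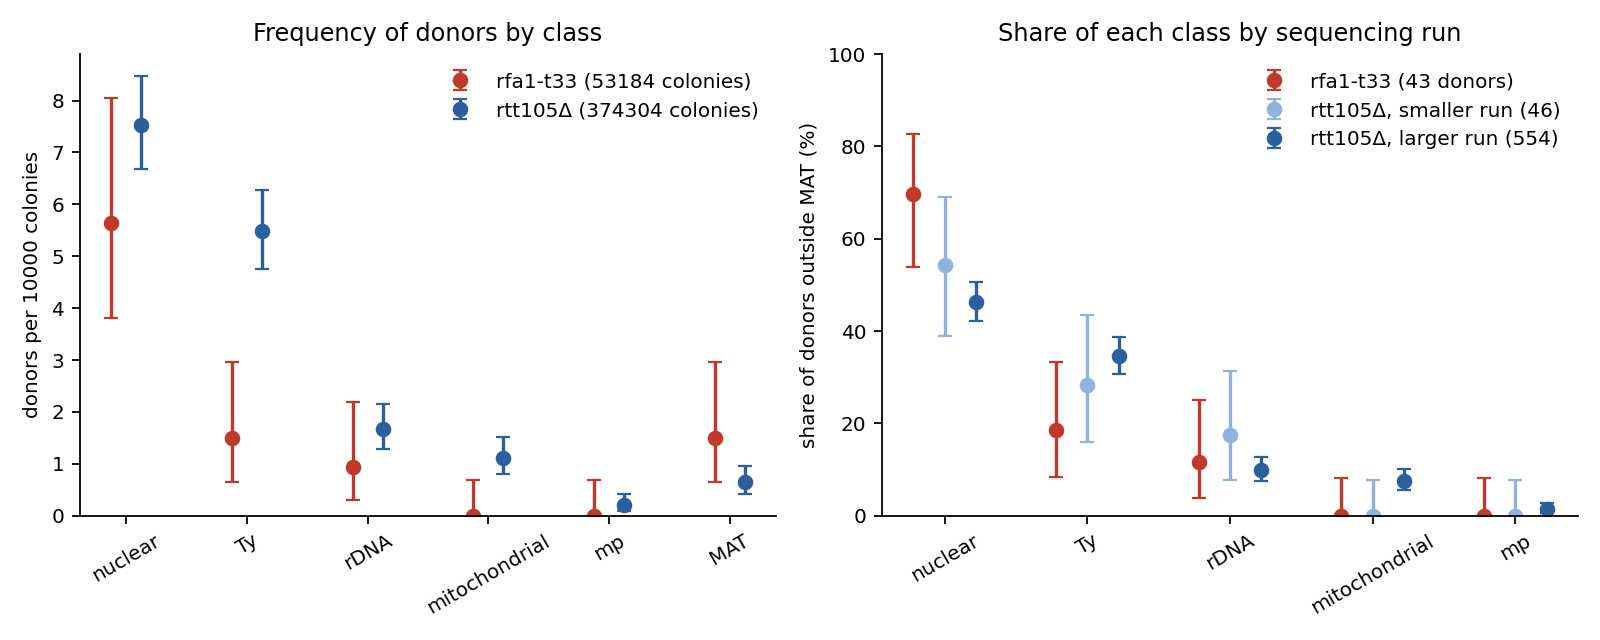
Left, donors per 10000 colonies by class in *rfa1*-t33 (red) and *rtt105*Δ (blue). Right, share in percent of donors outside *MAT* by class, with the 2 *rtt105*Δ runs apart. Points are pooled values and bars exact 95% intervals. Ty donors stand at 1.50 against 5.48 per 10000 colonies, *MAT* donors at 1.50 against 0.641, and mitochondrial donors are at 0 in both *rfa1*-t33 and the smaller *rtt105*Δ run.

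As a share of donors outside *MAT*, nuclear DNA made up 69.8% in *rfa1*-t33 (30 of 43, 53.9 to 82.8) and 47.0% in *rtt105*Δ (282 of 600, 42.9 to 51.1). The shares differed with an odds ratio of 2.60 (1.29 to 5.54; adjusted p = 0.0214, Fisher's exact test, Benjamini-Hochberg over 5 classes). The difference did not pass the test with single-donor insertions only (64.9% in *rfa1*-t33 against 46.3%, adjusted p = 0.199), nor with no margin around Ty and rDNA (adjusted p = 0.0848). The Ty share was 18.6% in *rfa1*-t33 (8 of 43) and 34.2% in *rtt105*Δ (205 of 600), with p = 0.0432 before and 0.108 after adjustment. Shares of rDNA were 11.6% (3.89 to 25.1) and 10.5% (8.16 to 13.2), with an odds ratio of 1.12 whose interval ran from 0.332 to 3.00.

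The shares were also taken within each *rtt105*Δ run. The smaller run held 46 donors outside *MAT*, of which 25 were nuclear (54.3%, 39.0 to 69.1), 13 Ty (28.3%), 8 rDNA (17.4%) and 0 mitochondrial. A count of 0 of 46 allows a share of up to 6.52%. All 42 mitochondrial and all 8 mp donors were in the larger run, where 257 of 554 were nuclear (46.4%), 192 Ty (34.7%) and 55 rDNA (9.93%). Against the smaller run alone, the difference in the nuclear share did not pass the test (p = 0.190, or 0.814 after adjustment). The mitochondrial share of the 2 *rtt105*Δ runs themselves, 0 of 46 against 42 of 554, differed with p = 0.0644 before and 0.322 after adjustment. Which libraries were in which run is not given in the sources used here, so frequencies per colony could not be split by run.

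The 8 Ty donors of *rfa1*-t33 lay in 6 elements, all of the Ty1 family. In *rtt105*Δ, 191 of 205 Ty donors were from Ty1 and 14 from Ty2, over 24 elements, and none was from Ty3 or Ty4. Copies of Ty1 are nearly identical, so that the element given is the one chosen in the alignment and can be uncertain. A donor that overlaps the frames of 2 adjoining elements was given to the one whose gag start it holds, a rule set after the values were seen. The element YPL257W-B on chromosome XVI gave 95 of 205 donors in *rtt105*Δ (46.3%, 39.4 to 53.4) and 1 of 8 in *rfa1*-t33 (12.5%, 0.316 to 52.7). In the smaller *rtt105*Δ run it gave 5 of 13.

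In Ty1, the gag reading frame begins inside the left long terminal repeat, and the site where a tRNA primes reverse transcription lies just after that repeat. The first cDNA made is therefore short, runs from that site back to the start of the RNA and has the opposite strand to the element. In *rfa1*-t33, 5 of 8 Ty donors crossed the start of gag, and all 5 ended 47 or 48 bp past its first base and lay on the opposite strand to the element. Of these, 2 were from YML039W, at 196333 to 196676 and 196465 to 196676 of chromosome XIII, with the same right end. Others were from YOL103W-B (XV, 117953 to 118048) and YPR137C-B (XVI, 810222 to 810414). The fifth, 444 bp long, was the longest donor of *rfa1*-t33 and lay where YJR027W is followed by YJR029W (X, 477949 to 478392), so that it also held the end of the pol frame of the former. The left ends of these 5 donors lay at -395, -295, -163, -145 and -47 bp from the first base of gag. The strand is that of the donor as read in the repaired junction, and the lists do not say which strand of DNA was captured. Whether any of these 5 donors came from that short first cDNA was not tested. The pattern was noticed in the values and is given with no test.

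In *rtt105*Δ, 52 of 205 Ty donors crossed the start of gag. Of all 205, 36 (17.6%, 12.6 to 23.5) crossed it and ended within 3 bp of 48 bp past the first base, at 45 to 50 bp. They lay in 12 elements, and 28 of these 36 were on the opposite strand. A donor of YPL257W-B that began at the first base of gag also ended at 48 bp and is not among the 36. The share that crossed and ended there was 5 of 13 in the smaller run (38.5%, 13.9 to 68.4) and 31 of 192 in the larger one (16.1%, 11.2 to 22.1), against 5 of 8 in *rfa1*-t33 (62.5%, 24.5 to 91.5). No test was run on these shares.

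**Figure D2:**
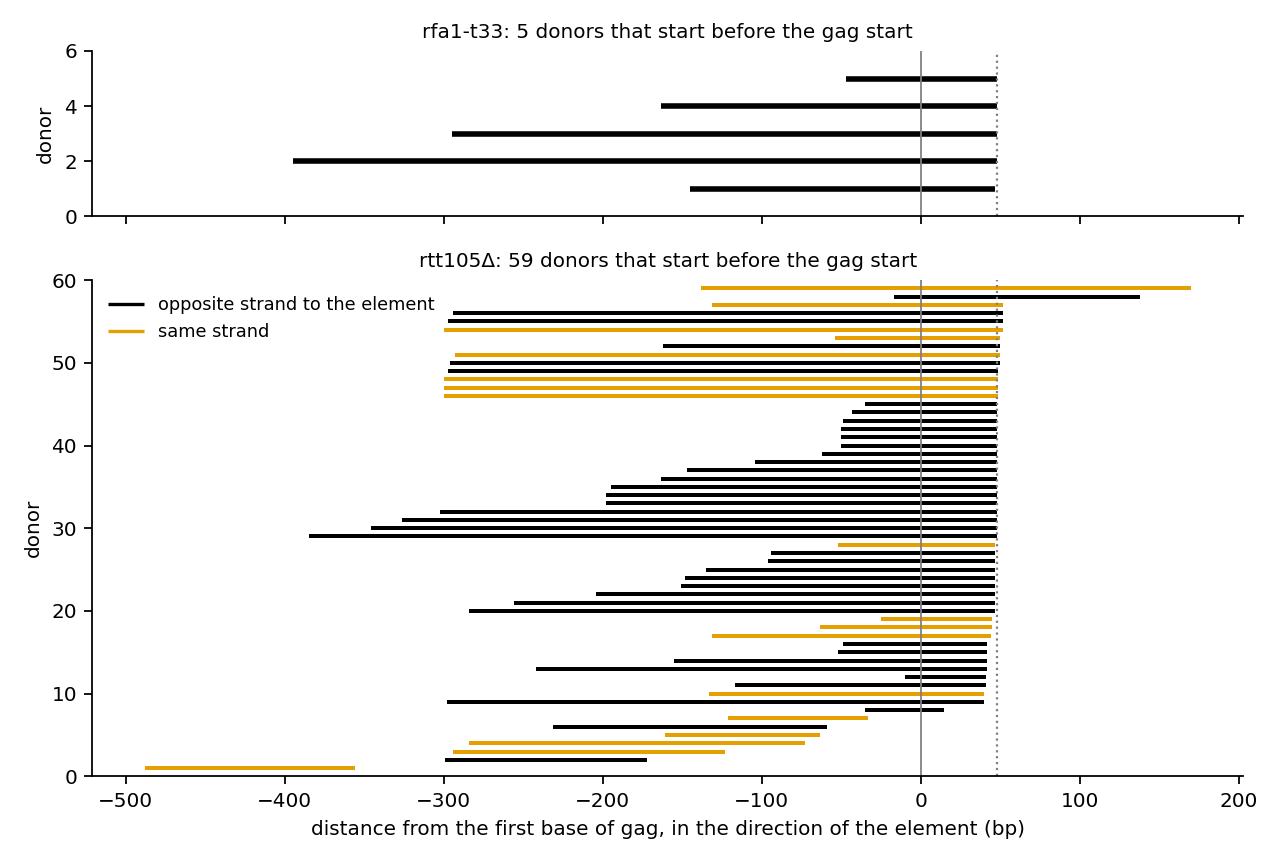
Ty donors that start before the first base of gag, drawn to scale as horizontal lines, 1 donor a row; the x axis is the distance in bp from that base in the direction of the element. Black donors have the opposite strand to the element and orange ones the same strand, and the dotted line is at 48 bp. All 5 *rfa1*-t33 donors end at 47 or 48 bp, as do many of the 59 *rtt105*Δ donors, at varied left ends.

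The remaining 3 *rfa1*-t33 Ty donors lay inside the frames, past the middle of the element. They were of 104 bp in YGR027W-B (VII, 540328 to 540431), 126 bp in YPL257W-B (XVI, 60552 to 60677) and 168 bp in YPR137C-B (XVI, 806768 to 806935). Of all 8 Ty donors in *rfa1*-t33, 1 lay on the strand of the element (12.5%, 0.316 to 52.7). In *rtt105*Δ this was 110 of 205 (53.7%, 46.6 to 60.6), with 3 of 13 in the smaller run. This strand share was also noticed in the values.

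The rDNA array repeats the 35S unit, from which the 18S, 5.8S and 25S rRNAs are processed, with a spacer that holds the 5S gene. All 5 *rfa1*-t33 donors of rDNA lay between 458204 and 459934 of chromosome XII, around the start of the 35S unit. Of these, 2 overlapped its external transcribed spacer (458204 to 458322 on the minus strand and 458237 to 458319 on the plus strand). The other 3 lay in the spacer upstream, at 458706 to 458844, 458970 to 459060 and 459866 to 459934, all on the plus strand. None overlapped a mature rRNA, 5S included (0 of 5, exact interval to 52.2%), against 35 of 63 donors in *rtt105*Δ (55.6%, 42.5 to 68.1).

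The *rtt105*Δ donors were spread over the repeat. Of 63, 19 overlapped 25S, 9 overlapped 18S, 4 overlapped 5.8S and 3 overlapped the 5S gene. Strands were counted by region. Of 42 donors that overlapped the 35S unit, which is transcribed on the minus strand, 35 lay on the plus strand (83.3%, 68.6 to 93.0), whereas 5 of 21 spacer donors did (23.8%, 8.22 to 47.2). In *rfa1*-t33, 1 of 2 donors over the 35S unit and 3 of 3 spacer donors lay on the plus strand. These strands and regions were noticed in the values and are given with no test.

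**Figure D3:**
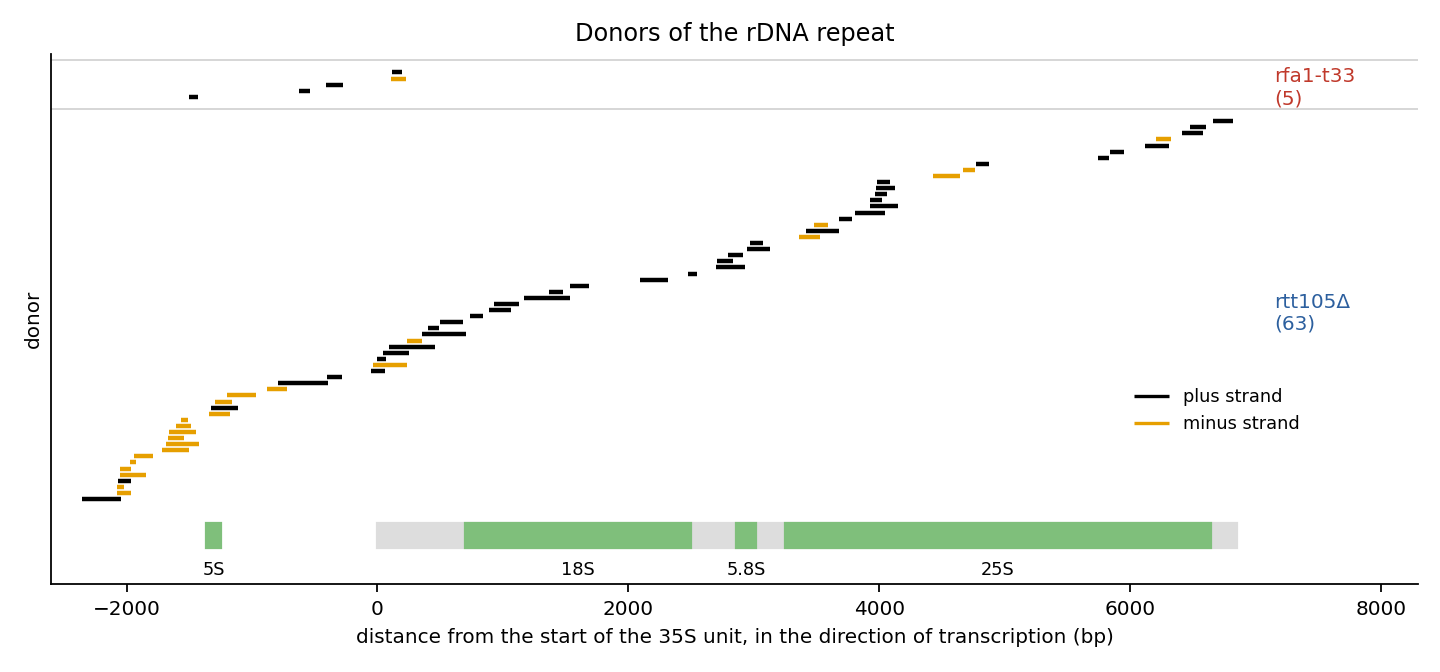
Donors of the rDNA repeat in *rfa1*-t33 (5, top) and *rtt105*Δ (63), drawn to scale, 1 donor a row, by distance in bp from the start of the 35S unit in the direction of transcription. Donors of the second annotated repeat are placed on the first. Black is the plus strand and orange the minus strand, the grey bar is the 35S unit and green bars are mature rRNAs. The *rfa1*-t33 donors lie near the start and upstream of it, and most *rtt105*Δ donors over the unit are black (35 of 42).

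The mitochondrial donors of *rtt105*Δ ranged from position 2049 to 84494 of the mitochondrial genome. Of 42, 17 overlapped an annotated gene, 11 of them COX1, which encodes a subunit of cytochrome c oxidase, and 6 the 21S rRNA gene. They lay on both strands, 23 of 42 on the plus strand. There were 35 single-donor insertions, and the other 7 donors formed 3 complex insertions made of mitochondrial DNA alone.

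Nuclear donors had medians above 100 bp in both mutants. The median length was 122 bp in *rfa1*-t33 (30 donors of 27 to 433 bp, interval of the median 107 to 160) and 138 bp in *rtt105*Δ (282 donors of 29 to 463 bp, 124 to 154). At least 100 bp were reached by 22 of 30 (73.3%, 54.1 to 87.7) and 203 of 282 (72.0%, 66.4 to 77.1). The odds ratio was 1.07 with an interval from 0.436 to 2.90 (adjusted p = 1.00, Fisher's exact test, Benjamini-Hochberg over 4 classes).

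Both medians were above those of cells that lack the flap endonuclease Rad27. The study reports the shortest insertions of its mutants in *rad27*Δ. Lengths were not compared with other mutants that keep Rad27, so the contrast cannot be called particular to weakened RPA. The *rad27*Δ list pools 14 libraries, of which the labels put 3 at 23 °C, 8 at 30 °C and 3 at 37 °C, while the 3 of *rtt105*Δ *rad27*Δ were at 30 °C. In *rad27*Δ, the median of 312 nuclear donors was 60.0 bp (56.0 to 63.0) and 10.3% were of at least 100 bp. In *rtt105*Δ *rad27*Δ, whose donors came from the same run as *rfa1*-t33, the median of 284 nuclear donors was 68.0 bp (66.0 to 72.0) and 22.5% reached 100 bp. The share of *rfa1*-t33 exceeded both that of *rtt105*Δ *rad27*Δ (odds ratio 9.37, 3.80 to 25.5, adjusted p = 4.14e-08) and that of *rad27*Δ (odds ratio 23.6, 9.24 to 66.7, adjusted p = 1.08e-13). These and the next p-value are from two-sided Fisher's exact tests, adjusted by Benjamini-Hochberg over 4 comparisons. The share of *rtt105*Δ also exceeded that of *rad27*Δ (odds ratio 22.3, 14.1 to 36.3, adjusted p = 1.20e-56).

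Among the other classes, Ty donors had medians of 180 bp in *rfa1*-t33 (8 donors) and 164 bp in *rtt105*Δ (205 donors, 141 to 183), and 7 of 8 against 169 of 205 reached 100 bp (adjusted p = 1.00). The 5 rDNA donors of *rfa1*-t33 were 69, 83, 91, 119 and 139 bp long. The 63 of *rtt105*Δ had a median of 154 bp (120 to 179). At least 100 bp were reached by 2 of 5 and 52 of 63, which did not pass the test (p = 0.0553, adjusted p = 0.221). Mitochondrial donors of *rtt105*Δ had a median of 104 bp (87.0 to 123) and mp donors of 102 bp.

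**Figure D4:**
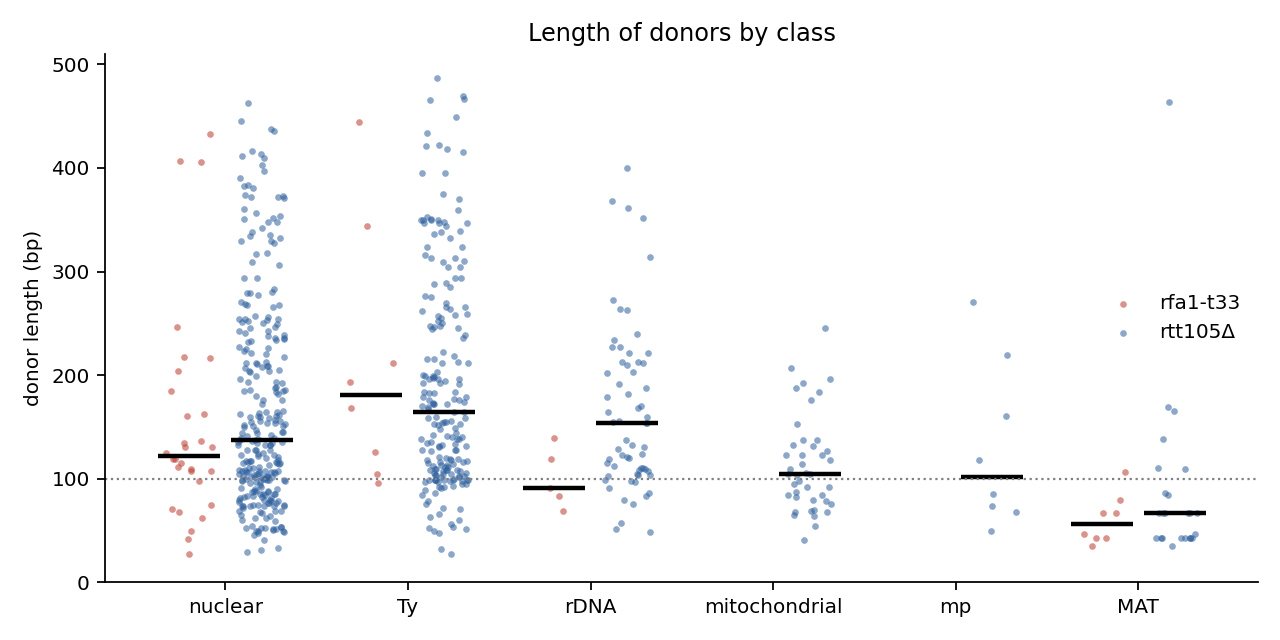
Length in bp of each donor by class in *rfa1*-t33 (red) and *rtt105*Δ (blue). Each point is a donor, black bars are medians and the dotted line is at 100 bp. Nuclear medians are 122 and 138 bp, *MAT* donors are shorter in both, and the *rfa1*-t33 rDNA donors do not exceed 139 bp.

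The 30 nuclear donors of *rfa1*-t33 came from 27 insertions at 27 loci on 11 of 16 chromosomes. They overlapped 17 protein-coding genes. DBF4, the regulatory subunit of the kinase that fires replication origins, held the longest nuclear donor, 433 bp at 560069 to 560501 of chromosome IV. Other genes of gene expression and RNA were ESS1, a prolyl isomerase of the RNA polymerase II tail (X, 466886 to 467070), ZAP1, the zinc-responsive transcription factor (X, 332178 to 332337), and DIP2, a component of the machinery that processes pre-rRNA.

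Genes with a mitochondrial role that held an *rfa1*-t33 donor were CYC1 (iso-1-cytochrome c; X, 526296 to 526429), COX13 (a subunit of cytochrome c oxidase; VII, 144947 to 145082), CBP3 (needed for cytochrome b; XVI, 147407 to 147525) and MDM34 (part of the tether of mitochondria to the endoplasmic reticulum; VII, 82997 to 83121). These nuclear genes are named by function and were not tested as a group. Signalling genes were SCH9, a kinase downstream of TORC1 (VIII, 511545 to 511606), and PTP3, a tyrosine phosphatase of the mating kinase pathway (V, 310393 to 310501).

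Metabolic genes were PAN5 (pantothenate synthesis; VIII, 224167 to 224281), IMD2 (GTP synthesis; VIII, 555149 to 555216) and CDD1 (cytidine deaminase). The remaining genes were ARV1 (lipid transport; XII, 623461 to 623866), SLA2 (endocytosis; XIV, 189249 to 189355), UIP4 (XVI, 195165 to 195238) and YIL014C-A (IX, 325134 to 325263). No gene was overlapped by donors of more than 1 *rfa1*-t33 insertion. In *rtt105*Δ, 192 genes or RNA genes were overlapped, 5 of them by donors of at least 2 insertions.

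Intergenic donors of *rfa1*-t33 numbered 11 of 30 (36.7%, 19.9 to 56.1), against 79 of 282 in *rtt105*Δ (28.0%, 22.9 to 33.6), where no annotated gene was overlapped. The shortest, 27 bp, lay at 292 to 318 of chromosome III, beside the left end. A donor of 407 bp lay between EMI2 and GRH1 (IV, 1476507 to 1476913). The stretch between OCA1 and RAS2 gave 204 bp (XIV, 439320 to 439523), 36 bp from the former gene and 78 bp from the latter.

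Position in the nuclear genome was described by 3 features. A protein-coding gene was overlapped by 19 of 30 donors in *rfa1*-t33 (63.3%, 43.9 to 80.1) and by 193 of 282 in *rtt105*Δ (68.4%, 62.7 to 73.8). Within 20 kb of a chromosome end lay 4 of 30 (13.3%, 3.76 to 30.7) and 20 of 282 (7.09%, 4.39 to 10.7). Both arms of 1 insertion were among those 4. Within 1 kb of a tRNA gene lay 4 of 30 (13.3%) and 32 of 282 (11.3%, 7.89 to 15.6). None of the 3 features passed the test (adjusted p = 0.763 for each, Fisher's exact test, Benjamini-Hochberg over 3 features), and the odds ratios had intervals of 0.343 to 1.94 for genes, 0.465 to 6.66 for ends and 0.286 to 3.79 for tRNA genes.

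The tRNA genes near *rfa1*-t33 donors were SUF2 (316 bp away), YNCG0011W (333 bp), YNCE0004C (421 bp) and YNCI0009W (485 bp), and none was overlapped. In *rtt105*Δ, 5 donors overlapped a tRNA gene, of which that at SUF2 reached only the edge of the gene. Where a donor overlapped 1 protein-coding gene, it lay on the strand of that gene in 12 of 19 cases in *rfa1*-t33 (63.2%, 38.4 to 83.7) and in 120 of 189 in *rtt105*Δ (63.5%, 56.2 to 70.4). The same share was 124 of 205 in *rad27*Δ (60.5%, 53.4 to 67.2).

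Gene lists were counted by overlap. In *rfa1*-t33, 0 of 30 nuclear donors overlapped a gene of any list, which allows a share of up to 10.0% for each (3 counts; the exact interval ends at 11.6%). In *rtt105*Δ, 3 of 282 overlapped genes of ribosomal proteins (RPL17B, RPL4B and RPS1B, of 137 in the list). The flocculin and cell wall list of 25 genes was overlapped by 6, of which 3 were in FLO1 and the others in FLO9, FLO11 and TIR4. The glycolytic gene CDC19 (of 12 in the list) was overlapped by 1, and snoRNA genes (SNR67 and SNR86, of 76) by 2. The share of the genome that each list covers was not computed, so these counts cannot be called high or low. No donor of *rtt105*Δ overlapped a hexose transporter, heat shock, seripauperin, Y′ helicase or galactose gene of the lists, which allows up to 3 counts of 282.

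Of 280 nuclear loci in the 2 mutants, 4 held donors of both. Of 30 *rfa1*-t33 nuclear donors, 4 (13.3%) lay within 500 bp of an *rtt105*Δ donor, and 7 of 282 *rtt105*Δ donors (2.48%) lay as near to one of *rfa1*-t33. By the same measure, 3 of 30 lay near one of 312 nuclear donors of *rad27*Δ and 5 of 30 near one of 284 of *rtt105*Δ *rad27*Δ. These lists differ in size, and overlap was not tested. The overlap of random positions was not computed, so these counts cannot be called low or high.

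The richest shared locus lay around the tRNA gene SUF2, at 123374 to 124726 of chromosome III. It held 1 *rfa1*-t33 donor of 216 bp (123964 to 124179) and 4 *rtt105*Δ insertions, 2 of which overlapped that donor. Another of them (123374 to 123577) reached only the edge of SUF2, which lies at 123577 to 123648. The locus was the only nuclear one with at least 3 insertions among 257 in *rtt105*Δ, of which 250 held 1. The table of genes lists no solo long terminal repeats, so donors from these count as nuclear.

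The other shared loci were MDM34, COX13 and IMD2. In MDM34 and COX13, donors of the mutants overlapped by 3 and 9 bp. In IMD2, the *rfa1*-t33 donor overlapped an *rtt105*Δ donor (VIII, 554745 to 555160) by 12 bp, and a second *rtt105*Δ donor overlapped the gene at 555810 to 556245. IMD2 has close paralogues, so its place can be uncertain. SLA2 was hit in both mutants at places 789 bp apart.

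In repeated DNA, copies of an element can be assigned to the same place by the alignment. Within 500 bp of an *rtt105*Δ donor lay 7 of 8 Ty donors and 5 of 5 rDNA donors of *rfa1*-t33. In the other direction these were 46 of 205 (22.4%) and 26 of 63 (41.3%). The lists of *rad27*Δ and *rtt105*Δ *rad27*Δ, with 18 and 9 Ty donors, held none within 500 bp of an *rfa1*-t33 Ty donor, whereas all 5 rDNA donors had a neighbour in each. In YPR137C-B, 5 *rtt105*Δ donors began at the same position, 810222, as the *rfa1*-t33 donor.

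Complex insertions, made of donors from more than 1 place or strand, were 3 of 40 insertions in *rfa1*-t33 (7.50%, 1.57 to 20.4) and 40 of 560 in *rtt105*Δ (7.14%, 5.15 to 9.60; p = 0.759, Fisher's exact test, two-sided). The 3 of *rfa1*-t33 were all same-locus inverted pairs, that is donors of 1 insertion on opposite strands within 1 kb. In *rtt105*Δ, 18 of 40 complex insertions held such a pair (45.0%, 29.3 to 61.5; p = 0.108). Among complex insertions made of 2 nuclear donors, the counts were 3 of 3 and 14 of 17 (82.4%, 56.6 to 96.2). Of the other complex insertions in *rtt105*Δ, 10 were made of 2 Ty donors, 3 of mitochondrial DNA and 2 of rDNA, 7 joined a Ty with a nuclear donor and 1 joined *MAT* with Ty.

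In *rfa1*-t33, the pair in DIP2 joined 119 bp of the minus strand (XII, 400189 to 400307) with 246 bp of the plus strand (400715 to 400960), 407 bp apart. The pair in CDD1 joined 111 bp (XII, 626676 to 626786, plus) with 42 bp (626812 to 626853, minus), 25 bp apart. The third lay between FET4, a low-affinity iron transporter, and YMR320W near the right end of chromosome XIII (914555 to 914661 minus, 914659 to 914756 plus), and its arms overlapped by 3 bp.

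The 14 nuclear pairs of *rtt105*Δ had arms of 29 to 390 bp (median 97.5 bp) against 42 to 246 bp (median 109 bp) in *rfa1*-t33. Their gaps ran from an overlap of 14 bp to 149 bp apart (median 4.00 bp), and 5 of 14 overlapped. They lay in or across VAM7, DDR48, SAM1, YPL257W, ADE57, CYC3, MGA2, SEA4, KAR4, SEC5, SWI6 with TOS4, RRD1, and COQ21 with LSR1, and 1 lay between genes (V, 132629 to 132764). DDR48 is a stress-induced gene that encodes a repetitive protein and held the pair with the largest overlap, and SWI6 with TOS4 held the longest, 518 bp in both arms. Pairs in repeated DNA came from YPL257W-B (2), YOL103W-B (1) and the rDNA (1). No gene held a pair in both mutants, but only 2 *rfa1*-t33 pairs lay in a gene, too few to read anything from this.

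**Figure D5:**
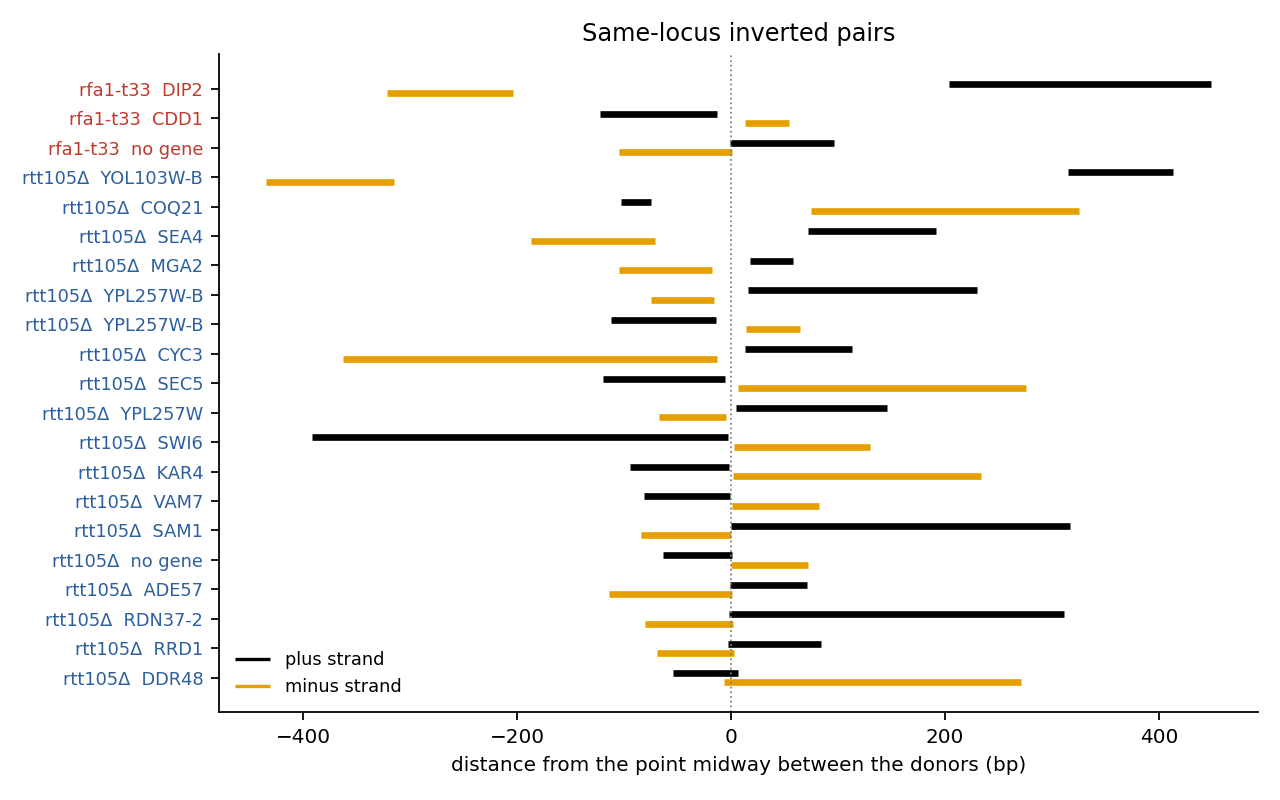
Same-locus inverted pairs of *rfa1*-t33 (red labels) and *rtt105*Δ (blue labels), drawn to scale, with distance in bp from the point midway between the donors on the x axis. Each row is an insertion labelled by the first gene it overlaps; black is the plus strand and orange the minus strand. The DIP2 pair of *rfa1*-t33 is 407 bp apart, while the nuclear pairs of *rtt105*Δ are at most 149 bp apart.

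Foldback-type donors are inverted copies of DNA next to the break, and the call on their frequency was lost when the *rtt105*Δ colonies were lowered slightly. The strains lack both silent cassettes, so donors mapped to *HMR* stand for *MAT***a**. There were 8 such *MAT* donors in *rfa1*-t33, or 1.50 per 10000 colonies (0.649 to 2.96), and 24 in *rtt105*Δ, or 0.641 (0.411 to 0.954; adjusted p = 0.106 over 6 classes). Foldback-type donors, on the minus strand and beginning at position 294436 of chromosome III, were 8 of 8 in *rfa1*-t33 and 21 of 24 in *rtt105*Δ. Per 10000 colonies they were at 1.50 and 0.561 (0.347 to 0.858), 2.68 times as high in *rfa1*-t33 per uncorrected colony (odds ratio 1.03 to 6.30; Fisher's exact test, two-sided, p = 0.0220, adjusted p = 0.0440 over 2 tests). This call was lost once the colonies of *rtt105*Δ were lowered to 97%, and at 80% the ratio was 2.14 (adjusted p = 0.138). Relative to *rfa1*-t33, the study's correction for HO cutting goes past 97%, so the foldback call holds for uncorrected colonies only. With the colonies of *rfa1*-t33 lowered instead, the call for all *MAT* donors was gained at 91%.

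The share of *MAT* donors among all donors does not depend on the number of colonies. It does depend on the other donors and rises where these are fewer. Insertions outside *MAT* were at 7.52 per 10000 colonies in *rfa1*-t33 and at 15.0 in *rtt105*Δ. The *MAT* share was 15.7% in *rfa1*-t33 (8 of 51, 7.02 to 28.6) and 3.85% in *rtt105*Δ (24 of 624, 2.48 to 5.67; p = 0.00157, Fisher's exact test, two-sided, a test chosen after the values were seen). The *rtt105*Δ runs differed here too. The share was 11.5% in the smaller run (6 of 52, 4.35 to 23.4) and 3.15% in the larger one (18 of 572, 1.88 to 4.93; p = 0.0105 between the runs). Against the smaller run, the difference did not pass the test (p = 0.578).

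All listed foldback-type donors were at least 35 bp long, and shorter ones, which the study also counts, were not analysed here. The foldback-type donors of *rfa1*-t33 were 35, 43, 43, 46, 67, 67, 79 and 106 bp long. Those of *rtt105*Δ were 35 to 169 bp long, with 7 of 43 bp and 6 of 67 bp. The lengths 35, 43, 46 and 67 bp occurred in both and covered 6 of 8 donors in *rfa1*-t33 and 15 of 21 in *rtt105*Δ. Equal lengths in a pooled list may be separate events or copies from different libraries. With donors within 5 bp counted once, the frequency of *rfa1*-t33 was 5.86 times that of *rtt105*Δ (adjusted p = 0.0144, Fisher's exact test). These donors share 1 end, so this counts separate lengths, and it left 5 donors in *rfa1*-t33 and 6 in *rtt105*Δ. Lengths recur more often in a longer list, so the higher ratio cannot be read as a larger difference.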

How the data were processed

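The authors cleaned reads (BBDuk), joined read pairs (PEAR), searched for insertions over 10 bp (BLASTN; genome build R64) and removed duplicates. The deposited lists hold donor positions and strands, and no count of reads. Of 30 deposited files, 4 were not used (a text list of libraries, lists of a genotype that no library has, and a list without a donor). Starts were printed 1-based. Classes were set with the RefSeq gene table of R64 and margins of 400 bp (Ty), 500 bp (rDNA) and 700 bp (mating-type cassettes). Chromosome ends were taken as the first and the largest annotated or donor position.

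Shares and frequencies were compared by two-sided Fisher's exact tests at a threshold of 0.05 after Benjamini-Hochberg adjustment within each family. The test of class shares was tested on simulated lists of independent donors. These lists had no complex insertions and no separate runs, so they do not bear on those limits. Named loci were genes hit in *rfa1*-t33, *rtt105*Δ loci with at least 3 insertions, shared loci and loci of inverted pairs. Members and lists were chosen with earlier results of these data known. Alternatives concerned the test, colonies, duplicates, margins, distances, length limits and runs. Python 3.11.15, NumPy 2.4.6, pandas 2.3.3, SciPy 1.17.1 and matplotlib 3.10.9 were used.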

Additional observations from a re-analysis of the deposited data

How the results depend on the processing

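Values are ratios of *rfa1*-t33 to *rtt105*Δ. Under alternatives, 113 results kept direction and side of the threshold and 20 did not. The frequency of insertions outside *MAT* stayed at 0.402 to 0.514 and that of Ty at 0.220 to 0.318, past the threshold in each of these alternatives. With *rtt105*Δ colonies at 80%, the nuclear frequency gained a call (0.599) and the foldback frequency lost it (2.14). The nuclear share lost the call with single-donor insertions (1.40), margins of 0 bp (1.40), *MAT* donors in the total (1.30) and the smaller run only (1.28). The mitochondrial frequency lost it with the chi-square test and single-donor insertions (0 in both), and the *MAT* share of all donors with the smaller run (1.36). The *MAT* frequency gained a call with donors within 5 bp counted once (3.91). That setting left 5 *MAT* donors in *rfa1*-t33 and 9 in *rtt105*Δ, with the limit on recurring lengths given above. Uncalled results that changed direction were the rDNA share (0.669 with the smaller run, 0.971 with *MAT* in the total), nuclear lengths (0.965 with the smaller run, 0.933 at 50 bp, 0.715 at 200 bp), rDNA lengths (1.02 at 50 bp), tRNA proximity (0.833 with the smaller run, 0 at 0.2 kb) and complex insertions (0.500 with the smaller run). Nuclear donors of *rfa1*-t33 near an *rtt105*Δ donor rose from 13.3% to 33.3% at 5000 bp. The lowered colonies and the run-wise values of features, complex insertions and the *MAT* share were added after the data had been seen. The cause of these changes was not tested, except that the smaller run holds fewer donors and that lowered colonies raise 1 group's frequencies. Leaving out 1 library was not run, since the lists cannot be traced to libraries. No paired analysis was possible because the lists pool the libraries and carry no replicate number. With 43 donors outside *MAT* in *rfa1*-t33, a class below 6.98% of donors could be missed.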
